A study of Mus musculus with 12 samples.

Results

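The bone morphogenetic protein (BMP) and transforming growth factor beta (TGF-beta) pathway was followed through 49 named genes in MC3T3-E1 cells, a mouse calvarial pre-osteoblast line. The 49 were taken by symbol from the 56691 rows of the count table. They are 15 ligands, the protease Bmp1, 3 latent TGF-beta binding proteins, 10 receptors, 2 co-receptors, 7 extracellular antagonists, 8 SMADs and the 3 target genes Id1, Id2 and Id3. Of these, 37 were among the 14394 genes with enough counts to test, and the other 12 were close to the detection floor and are given by their counts.

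Each of 4 groups had 3 libraries, read by a 3' tag method that counts the ends of messages. All cells were wild type and were differentiated for 28 days in osteogenic medium with 10 mM beta-glycerophosphate (BGP), 50 µg/ml ascorbic acid and 0.1 µM dexamethasone, which the controls received too. From day 27, for 24 h, a group received nothing further (control), 25-hydroxyvitamin D at the labelled dose of 100 µM (25(OH)D), the same with a further 4 mM BGP (25(OH)D plus BGP), or the same with 100 µM ZK191784, a compound given by its code name (25(OH)D plus ZK191784). ZK191784 is known as a ligand of the vitamin D receptor that can act as an antagonist. No group received the further 4 mM BGP or ZK191784 without 25(OH)D. The data therefore hold the effect of adding either to 25(OH)D, not of either alone. MC3T3-E1 is 1 cell line, and the labels name no separate cultures, so p-values measure the spread between these libraries, which may be technical.

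Ligands of this family are secreted dimers that bring type I and type II receptor kinases together. Receptors of the BMP branch phosphorylate SMAD1, SMAD5 and SMAD9, and those of the TGF-beta and activin branch phosphorylate SMAD2 and SMAD3. Both sets of SMADs join SMAD4 and act in the nucleus, while SMAD6 and SMAD7 are inhibitors. In bone, BMPs drive osteoblast differentiation, TGF-beta is stored in the matrix in a latent form, and 25(OH)D is the circulating precursor of the hormone that activates the vitamin D receptor.

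Library totals ran from 3318723 to 5170980 counts, of which the 49 genes took 0.237 to 0.302%. Within groups, libraries differed mainly along 1 component, which held 60.3% of the within-group variance, against 7.32% for the next. Libraries were also described by a log2 ratio with ribosomal protein genes above and their pseudogenes plus Gm-numbered genes below. How closely this ratio follows that component was not tested. That library ratio was -1.63, -1.73 and -0.56 in the controls, -0.42, -1.11 and -1.69 with 25(OH)D, -1.60, -0.42 and -1.08 with 25(OH)D plus BGP, and -0.76, -1.09 and -1.53 with 25(OH)D plus ZK191784. The ranges of the groups overlapped, but the means were not equal. The mean ratio was -1.30 in controls, -1.07 with 25(OH)D, -1.03 with 25(OH)D plus BGP and -1.13 with 25(OH)D plus ZK191784. Its part in the differences between groups was not tested.

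The cells were checked against marker lists. All 12 osteoblast markers were tested, and their summed level was 127500 to 143000 CPM (counts scaled to library size) in controls, 71390 to 79400 with 25(OH)D, 71600 to 78820 with 25(OH)D plus BGP and 74630 to 85690 with 25(OH)D plus ZK191784. With 25(OH)D against control, 3 osteoblast markers rose and 8 fell. A few abundant genes made up most of these sums and went in different directions. Spp1 averaged 3395 CPM in controls and 30440 over all 12 libraries, and Sparc 71820 and 33160. The sums therefore do not give the size of change of single markers. Of 6 osteocyte markers 5 were tested and 3 fell. The 6 summed to 111.1 to 150.1 CPM in controls and 52.03 to 66.06 with 25(OH)D. With added BGP they summed to 75.58 to 77.91 CPM, and with added ZK191784 to 86.97 to 116.9. Pdpn was the largest part, at 99.55 CPM in controls, while Dmp1 was at 2.521 CPM in controls and 4.864 over all 12 libraries. Of other cell types, 1 of 6 adipocyte, 2 of 6 chondrocyte, 2 of 5 endothelial, 2 of 5 skeletal muscle and 5 of 7 macrophage and osteoclast markers passed the filter, and Cdh5 and Myog, of endothelium and muscle, had 0 counts in all libraries. Adipocyte markers summed to 7.587 to 9.278 CPM in controls and 1.321 to 6.151 with 25(OH)D, and 1 of them and 1 chondrocyte marker fell. The other lists had overlapping sums in these 2 groups, with macrophage and osteoclast markers at 328.3 to 458.7 CPM in controls and 282.3 to 363.2 with 25(OH)D, and over all 12 libraries Ptprc averaged 211.5 CPM and Csf1r 1.939. Their part in the results on the 49 genes was not tested.

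Promoters of 4 of the 8 genes that differed between 25(OH)D and control are shown first, 2 with a match to a motif searched and 2 without. RefSeq promoter windows (GRCm38.p6) were matched by symbol for 33 of the 49 genes and for 6 of those 8. The 4 windows below hold the 250 bases before the transcription start of Id2 (chr12:25096093-25096342, minus strand), Gdf15 (chr8:70632457-70632706, minus strand, the first of its starts), Inhba (chr13:16011601-16011850, plus strand) and Bmp4 (chr14:46390670-46390919, minus strand). Capitals mark a match to 1 of 4 motifs searched on both strands: GTCTAGAC, the palindrome bound by SMAD3 and SMAD4, GGCGCC, a box of BMP-responsive SMADs, AGGTCA, the half-site of the vitamin D receptor, and GGTTCA, a variant of that half-site.
Id2: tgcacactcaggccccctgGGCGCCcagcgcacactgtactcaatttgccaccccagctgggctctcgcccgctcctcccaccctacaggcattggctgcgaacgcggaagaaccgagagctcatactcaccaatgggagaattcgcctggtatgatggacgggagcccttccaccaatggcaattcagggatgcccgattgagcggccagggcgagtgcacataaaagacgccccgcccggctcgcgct
Gdf15: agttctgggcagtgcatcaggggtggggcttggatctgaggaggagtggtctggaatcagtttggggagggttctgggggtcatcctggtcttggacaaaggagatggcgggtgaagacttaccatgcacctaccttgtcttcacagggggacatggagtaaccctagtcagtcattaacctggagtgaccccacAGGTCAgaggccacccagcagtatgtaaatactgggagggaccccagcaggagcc
Inhba: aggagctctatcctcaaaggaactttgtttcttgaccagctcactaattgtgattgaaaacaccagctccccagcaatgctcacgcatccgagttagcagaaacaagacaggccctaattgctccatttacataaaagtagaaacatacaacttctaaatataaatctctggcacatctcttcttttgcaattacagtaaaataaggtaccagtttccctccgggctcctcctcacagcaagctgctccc
Bmp4: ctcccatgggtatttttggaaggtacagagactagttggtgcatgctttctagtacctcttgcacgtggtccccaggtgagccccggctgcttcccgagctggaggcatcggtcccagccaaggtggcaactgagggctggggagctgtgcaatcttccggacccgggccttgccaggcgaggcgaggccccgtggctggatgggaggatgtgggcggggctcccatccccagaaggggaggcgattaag

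Id2 held GGCGCC between 231 and 226 bases before its start, and Gdf15 held AGGTCA between 55 and 50 bases before its start. No motif searched was in the Inhba or Bmp4 window. Among 32851 windows, GGCGCC was in 9.59%, AGGTCA in 14%, GGTTCA in 8.85% and GTCTAGAC in 0.167%. Among the 40 windows of the 49 genes, GGCGCC was in 8 (20%), AGGTCA in 4 (10%), GGTTCA in 2 (5%) and GTCTAGAC in 0. Among the 8 windows of the 8 called genes, which also include a second Gdf15 window, 1 of Gdf11 and 2 of Ltbp1, GGCGCC and AGGTCA were in 1 each (12.5%) and the other motifs in 0. A match describes the letters in these windows only.

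The first comparison asked how 25(OH)D moved the pathway in cells differentiated in osteogenic medium. Of 9 tested ligands 5 passed. Tgfb3, Gdf15 and the protease Bmp1 rose, and Inhba, Bmp4, Gdf11, the storage protein Ltbp1 and the target Id2 fell. In all, 8 of 37 tested members passed (21.6%), 3 higher and 5 lower, against 8.68% of all genes tested, with 4.76% higher and 3.93% lower. The test was edgeR's quasi-likelihood test, with p-values adjusted by Benjamini-Hochberg over all 14394 genes, and a gene is said to pass by this test unless another setting is named. The median log2 fold change was 0.025 over the 37 members and -0.049 over all genes. Members were chosen with earlier results of these data known, so their share is not independent of those results. The libraries of both groups did not overlap for 16 members, against 21.9% of all genes. When the library ratio entered as a covariate, 16 members passed, and genes called over the whole table went from 1250 to 2840.

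Tgfb3 encodes a TGF-beta isoform. It was at 7.91, 13.7 and 15.9 CPM in controls, 58.3, 63.4 and 37.8 with 25(OH)D, 26.4, 70.9 and 37.0 with 25(OH)D plus BGP and 25.8, 21.9 and 17.0 with 25(OH)D plus ZK191784. All 25(OH)D libraries lay above all controls, and the ZK191784 libraries lay between the 2 groups. The rise with 25(OH)D was 4.24-fold (log2 fold change 2.08 ± 0.38 SE, edgeR adjusted p = 0.00341). The other isoforms did not pass: Tgfb1 was at 107 ± 30.0 CPM (SD, n = 3) in controls and 116 ± 32.4 with 25(OH)D, and Tgfb2 at 46.4 ± 2.99 and 36.0 ± 4.64. In bulk RNA, fewer cells of a type and less RNA per cell cannot be told apart, here and in every comparison that follows.

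Gdf15, a distant family member that signals through a receptor outside this list and is known as a stress-induced hormone, also rose. Its levels were 19.9, 18.1 and 11.2 CPM in controls and 57.2, 50.6 and 75.5 with 25(OH)D, with no overlap. They were 78.0, 40.7 and 58.2 with 25(OH)D plus BGP, 1 above and 1 below the span of 25(OH)D, and 21.1, 21.5 and 25.2 with 25(OH)D plus ZK191784, just above the controls. The rise with 25(OH)D was 3.72-fold (log2 fold change 1.89 ± 0.28 SE, edgeR adjusted p = 0.000762).

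Inhba, which encodes the subunit of activin A, showed the largest fall among the 37 members. Its levels were 32.1, 41.7 and 66.1 CPM in controls and 14.98, 9.88 and 7.66 with 25(OH)D, so every treated library was below every control. They were 13.7, 15.4 and 20.2 with 25(OH)D plus BGP and 39.7, 29.9 and 27.2 with 25(OH)D plus ZK191784. The latter overlapped the controls. The fall with 25(OH)D was 4.30-fold (log2 fold change -2.10 ± 0.32 SE, edgeR adjusted p = 0.00105). Inhbb, the subunit of activin B, was low throughout, at 3.84, 3.79 and 2.85 CPM in controls and 3.21, 4.58 and 1.32 with 25(OH)D, and did not pass (edgeR adjusted p = 0.846).

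Bmp4, a ligand of osteoblast differentiation, was at 228, 242 and 205 CPM in controls and 109, 94.0 and 111 with 25(OH)D, a narrow spread in both groups. It was at 93.1, 88.6 and 101 with 25(OH)D plus BGP and 131, 120 and 130 with 25(OH)D plus ZK191784. The controls lay above all 9 treated libraries. The fall with 25(OH)D was 2.15-fold (log2 fold change -1.10 ± 0.13 SE, edgeR adjusted p = 0.000124), the smallest adjusted p among the members in this comparison. Bmp2, the other well-known osteogenic ligand, had 3 counts in all control libraries together and 4 with 25(OH)D, too few to compare.

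Gdf11, a ligand close to myostatin that signals through activin receptors, was at 57.1, 52.5 and 41.4 CPM in controls and 23.8, 25.8 and 30.4 with 25(OH)D. It was at 33.9, 28.7 and 25.3 with 25(OH)D plus BGP and 37.3, 45.1 and 47.4 with 25(OH)D plus ZK191784. The fall with 25(OH)D (log2 fold change -0.92 ± 0.19 SE, edgeR adjusted p = 0.00842) was lost without the second 25(OH)D library (adjusted p = 0.0544). Gdf6, a ligand of joint and skull development, was at 17.5, 17.5 and 33.5 CPM in controls and 12.8, 12.8 and 9.24 with 25(OH)D, without overlap, but did not pass (log2 fold change -0.97 ± 0.38 SE, edgeR adjusted p = 0.162).

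**Figure D1:**
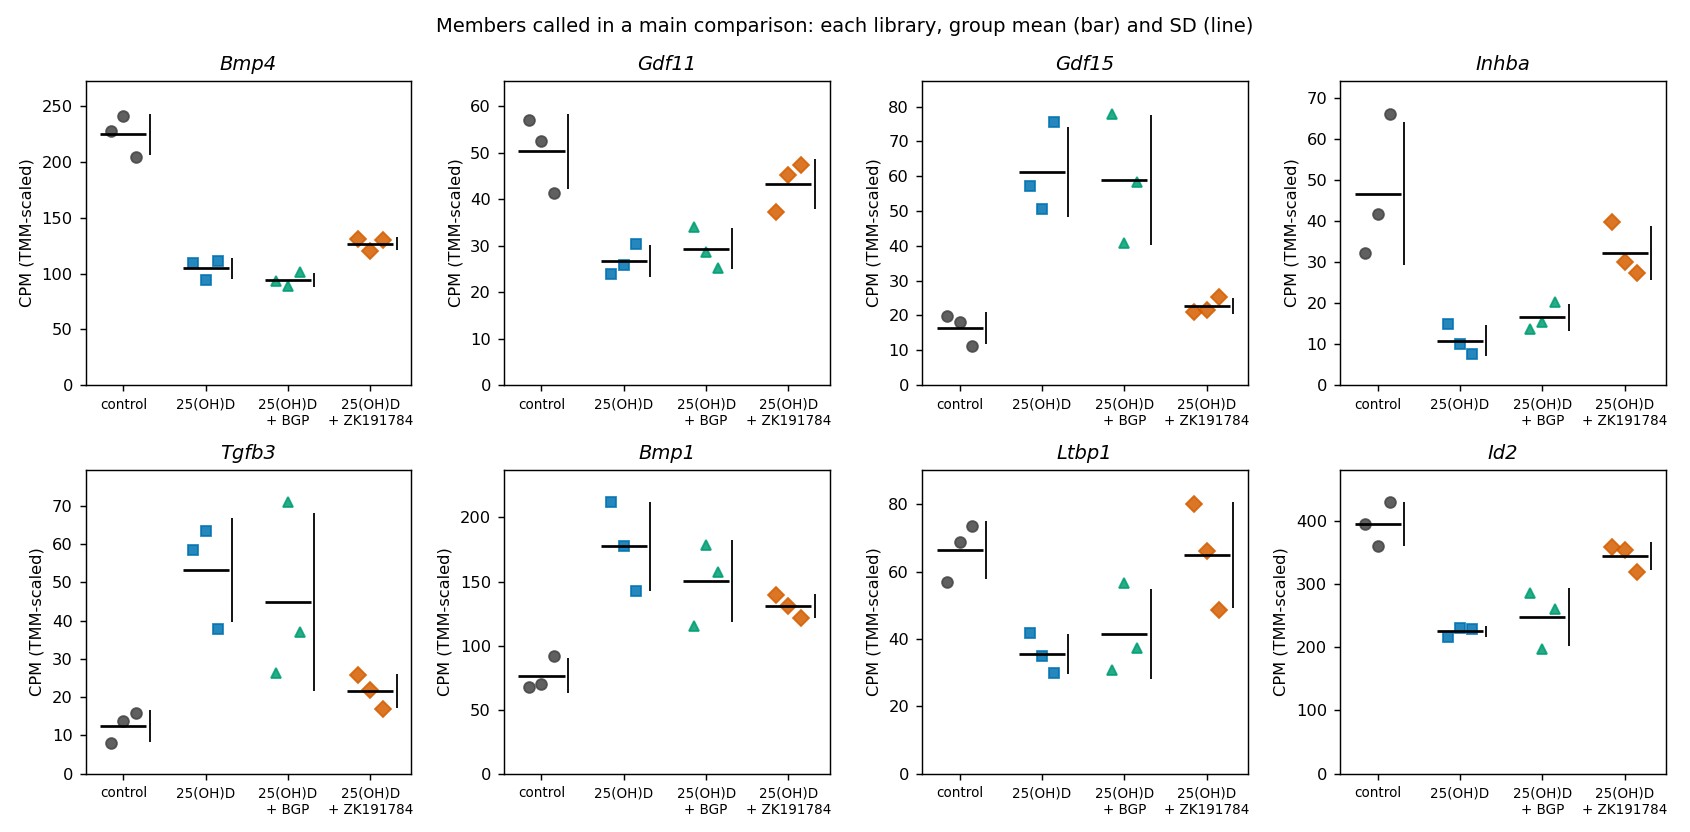
CPM of the 8 members that passed in at least 1 of the 3 main comparisons, 1 panel per gene, with 1 point per library, the group on the horizontal axis the mean marked by a bar and the SD by a vertical line beside it. Gdf15 returned to 21.1 to 25.2 CPM with ZK191784, near the controls, while Bmp4 stayed between 120 and 131 CPM, below them.

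Of the genes for extracellular processing and storage, Bmp1 and 1 of 3 latent TGF-beta binding proteins passed. Bmp1, a metalloprotease that trims procollagen and the BMP antagonist chordin and is no BMP ligand, was at 67.4, 70.0 and 92.1 CPM in controls and 212, 177 and 143 with 25(OH)D. It was at 116, 179 and 157 with added BGP and 140, 131 and 121 with added ZK191784, so all 9 treated libraries were above the controls. The rise with 25(OH)D was 2.32-fold (log2 fold change 1.21 ± 0.20 SE, edgeR adjusted p = 0.00172).

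Ltbp1, which tethers latent TGF-beta to the matrix, was at 56.8, 68.7 and 73.5 CPM in controls and 41.7, 35.0 and 29.8 with 25(OH)D. Its fall (log2 fold change -0.90 ± 0.25 SE, edgeR adjusted p = 0.0414) was close to the threshold and was lost when any 1 of the 6 libraries was left out, with adjusted p from 0.0548 to 0.136. It was at 30.9, 56.5 and 37.4 CPM with 25(OH)D plus BGP, and at 80.0, 66.1 and 48.7 with 25(OH)D plus ZK191784. Ltbp2 (log2 fold change -0.79 ± 0.32 SE) and Ltbp3 (-0.08 ± 0.36) did not pass.

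Among the targets, Id2, an inhibitor of helix-loop-helix factors that BMP signals induce in many cells, was at 395, 360 and 429 CPM in controls and 216, 230 and 229 with 25(OH)D. It was at 286, 197 and 260 with added BGP and 359, 354 and 318 with added ZK191784. All 9 treated libraries were below every control, though the highest with ZK191784 nearly reached the lowest control, at 360 CPM. The fall with 25(OH)D was -0.81 ± 0.15 SE on the log2 scale (edgeR adjusted p = 0.00362).

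Id1, the best known BMP target of the 3, was at 20.9, 25.5 and 30.0 CPM in controls and 15.5, 13.5 and 7.40 with 25(OH)D, without overlap. It missed the threshold (log2 fold change -1.07 ± 0.33 SE, edgeR adjusted p = 0.0691) and passed by DESeq2 (adjusted p = 0.0204). With 25(OH)D plus BGP it was at 9.54, 16.9 and 8.29 CPM and with 25(OH)D plus ZK191784 at 16.4, 12.3 and 12.2, all below every control. Id3 spread widely within groups, with 107, 122 and 484 CPM in controls and 186, 135 and 44.4 with 25(OH)D, and the groups overlapped (log2 fold change -0.97 ± 0.67 SE, edgeR adjusted p = 0.493). The third control, with 484 CPM of Id3, had the highest library ratio of its group, and the third 25(OH)D library, with 44.4 CPM, the lowest of its own. With the ratio as a covariate the Id3 difference was -1.20 on the log2 scale (edgeR adjusted p = 5.24e-06). That covariate also raised the genes called over the whole table from 1250 to 2840. The ratio's part in the Id3 spread was not tested.

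No receptor passed by edgeR in the 5 comparisons, where 0 to 8.68% of all genes did. For 8 tested receptors, 0 is not set apart from those shares. Under the alternatives 1 receptor, Bmpr2, passed in 1 comparison, 25(OH)D plus BGP against control with the library ratio as covariate. It was at -0.31 on the log2 scale (edgeR adjusted p = 0.0292). With 25(OH)D the 8 tested receptors ran from -0.34 to 0.75 on the log2 scale, and their smallest adjusted p was 0.289. Bmpr1a, a type I BMP receptor, was at 106 ± 6.49 CPM in controls, 110 ± 8.82 with 25(OH)D, 105 ± 7.42 with added BGP and 106 ± 5.55 with added ZK191784 (SD, n = 3). Its log2 fold change with 25(OH)D was 0.06 ± 0.13 SE. Bmpr2, the type II BMP receptor, was at 202 ± 18.8 CPM in controls and 178 ± 7.46 with 25(OH)D (log2 fold change -0.18 ± 0.12 SE). The TGF-beta receptors Tgfbr1 (0.38 ± 0.22 SE) and Tgfbr2 (-0.34 ± 0.27 SE) went in opposite directions, neither past the test.

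The co-receptor Tgfbr3, betaglycan, which presents TGF-beta to its receptors and binds inhibin, was at 21.8, 41.5 and 53.1 CPM in controls and 164, 141 and 54.1 with 25(OH)D. The groups did not overlap, but the third 25(OH)D library stood beside the highest control. The difference missed the threshold (log2 fold change 1.62 ± 0.49 SE, edgeR adjusted p = 0.0605). Without that library it passed (edgeR adjusted p = 0.0184), and it passed by DESeq2 (adjusted p = 0.0113). Eng, endoglin, was below 5 CPM on average in each group and did not pass.

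None of the 8 SMADs, the transducers of the pathway, passed by edgeR in the 5 comparisons, where 0 to 8.68% of all genes did. For 8 genes, 0 is not set apart from those shares. With 25(OH)D they ran from -0.73 to 0.36 on the log2 scale. Smad1 was at 35.0 ± 4.31 CPM in controls and 36.7 ± 8.53 with 25(OH)D (SD, n = 3), a log2 fold change of 0.07 ± 0.25 SE. Smad2 came nearest to the threshold, with -0.54 ± 0.19 SE and an edgeR adjusted p of 0.121, and passed when the library ratio entered as a covariate (0.0167). Between 25(OH)D plus BGP and control Smad2 was at -0.65 ± 0.19 SE (edgeR adjusted p = 0.0573), and passed by DESeq2 (adjusted p = 0.0358), without the third control (0.0416) and with the covariate (0.00411). The inhibitors Smad6 (0.16 ± 0.38 SE) and Smad7 (0.25 ± 0.25 SE) did not pass with 25(OH)D. Smad6 passed with the covariate in 2 comparisons, higher with ZK191784 than with 25(OH)D (adjusted p = 0.048) and lower with 25(OH)D plus BGP than in controls (adjusted p = 0.00135). These are levels of messages and say nothing of SMAD phosphorylation, and an SE near 0.2 leaves room for changes of modest size.

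Of the antagonists, 3 were tested and none passed with 25(OH)D, where 8.68% of all genes did. Nog, noggin, which binds BMPs, was at 8.63, 9.27 and 10.9 CPM in controls, 2.41, 4.34 and 3.70 with 25(OH)D, 3.93, 1.07 and 4.63 with added BGP and 3.89, 5.54 and 6.09 with added ZK191784. Every treated library was below every control. With 25(OH)D the log2 fold change was -1.45 ± 0.44 SE (edgeR adjusted p = 0.0643, and 0.0154 by DESeq2). Fst, follistatin, which binds activins, was at 216, 263 and 421 CPM in controls and 542, 466 and 289 with 25(OH)D, with overlap (log2 fold change 0.53 ± 0.35 SE, edgeR adjusted p = 0.47). Fstl1, a related secreted glycoprotein, was at 71.2, 72.1 and 143 CPM in controls and 236, 170 and 109 with 25(OH)D (0.85 ± 0.34 SE, edgeR adjusted p = 0.185), and passed without the third control (edgeR adjusted p = 0.0296).

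**Figure D2:**
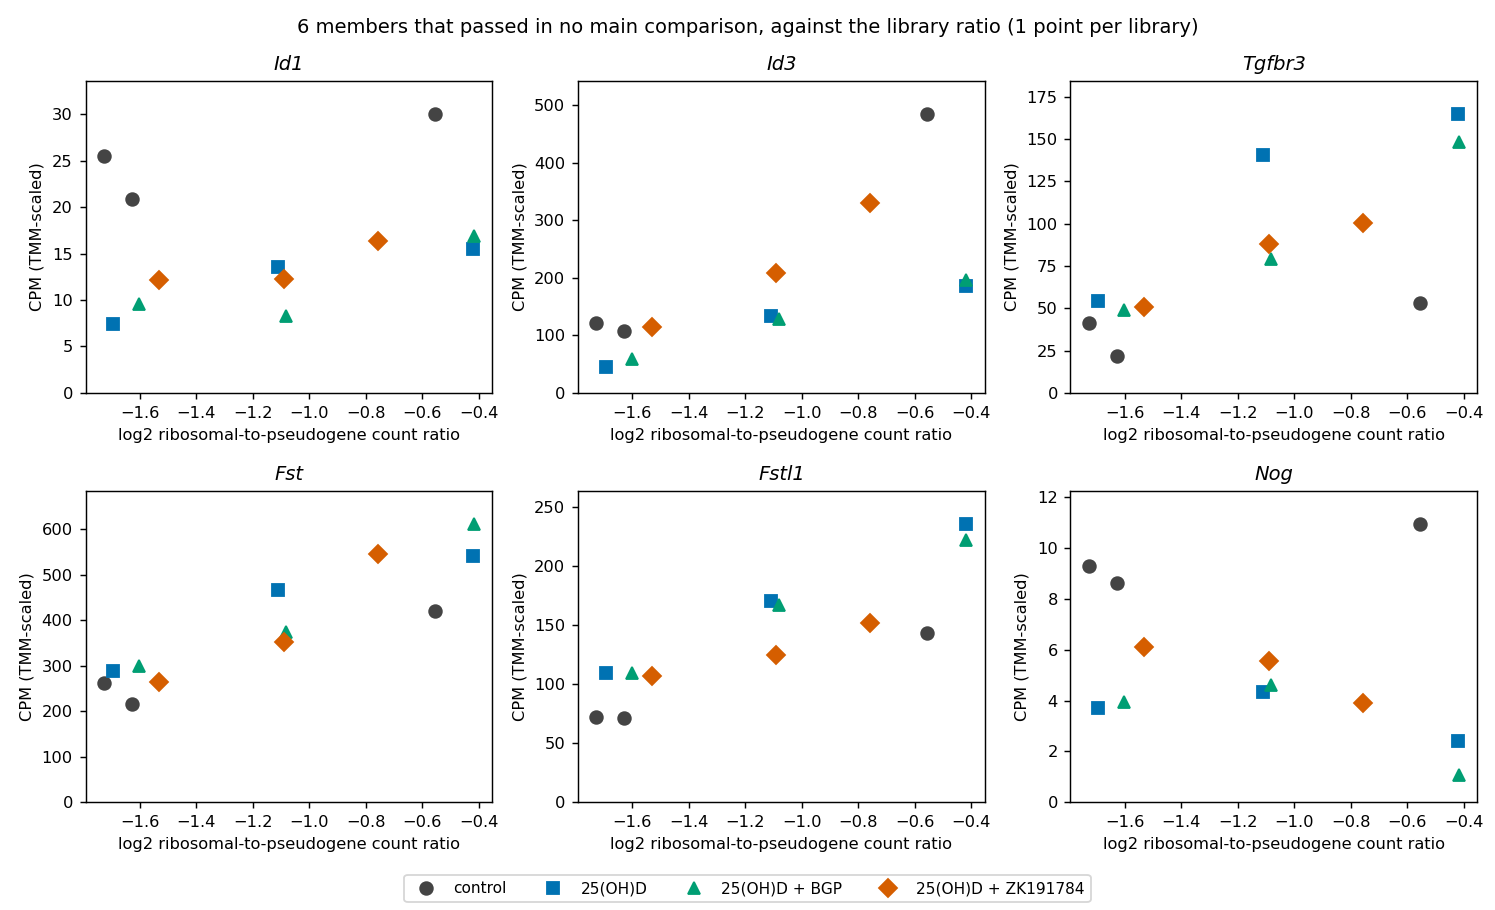
CPM of Id1, Id3, Tgfbr3, Fst, Fstl1 and Nog (vertical axes, 1 panel per gene) against the library ratio of ribosomal protein genes to pseudogenes (horizontal axes, log2), 1 point per library with the group by colour and shape. Id3 ranged from 107 to 484 CPM among the 3 controls, where the ratio ranged from -1.73 to -0.56, while Nog stayed between 8.63 and 10.9. The ratio's part in these spreads was not tested.

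Adding BGP asked whether more of the phosphate donor changed the response to 25(OH)D. None of the 37 tested members passed, against 0% of all genes (0 of 14394 by edgeR), and DESeq2 called 0 genes too. No member had an unadjusted p under 0.05. Only 268 of all 14394 genes did, so 0 of 37 members is not set apart from that share. The log2 differences ran from -0.60 to 0.67, with a median of -0.045 over members and -0.022 over all genes.

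None of the 8 called members passed between 25(OH)D plus BGP and 25(OH)D, which does not show that they were equal. Bmp4 differed by -0.15 ± 0.13 SE on the log2 scale, and Inhba by 0.61 ± 0.32 SE. Inhba averaged 10.8 CPM with 25(OH)D and 16.5 with added BGP. The libraries did not overlap for 1 member, against 6.04% of all genes. It was Acvr2b, a type II activin receptor, at 12.0 ± 1.80 CPM with 25(OH)D and 7.85 ± 0.531 with added BGP (SD, n = 3), a log2 fold change of -0.60 ± 0.29 SE with an edgeR adjusted p of 1. Smad6 differed by -0.58 ± 0.38 SE.

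Against control, 25(OH)D plus BGP gave 8 called members of 37, 3 higher and 5 lower, against 8.25% of all genes (3.9% higher and 4.35% lower). These used the same controls as 25(OH)D and are set beside it without a test between them. Bmp4 was at -1.25 ± 0.13 SE on the log2 scale (edgeR adjusted p = 5.3e-05), Inhba at -1.50 ± 0.31 (adjusted p = 0.0087), Tgfb3 at 1.84 ± 0.38 (adjusted p = 0.00784), Gdf15 at 1.84 ± 0.28 (adjusted p = 0.000981) and Bmp1 at 0.98 ± 0.20 (adjusted p = 0.00771). Nog passed here (-1.58 ± 0.44, edgeR adjusted p = 0.0453), a call lost when any 1 of the 6 libraries was left out, with adjusted p from 0.055 to 0.12. Id2 (-0.67 ± 0.15, edgeR adjusted p = 0.0121) and Gdf11 (-0.78, edgeR adjusted p = 0.0211) were the other 2, and Ltbp1 did not pass. The Id2 call was lost without the second BGP library (adjusted p = 0.0534) and in the fit of these 2 groups alone (0.144). The Gdf11 call was lost without a filter (0.0574), in the fit of these 2 groups alone (0.107), and without the first or the second control or the second or the third BGP library (0.081 to 0.13). In the fit of these 2 groups alone 5 members passed, and 18 when the library ratio entered as a covariate, where genes called over the whole table went from 1187 to 712 and 2684.

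**Figure D3:**
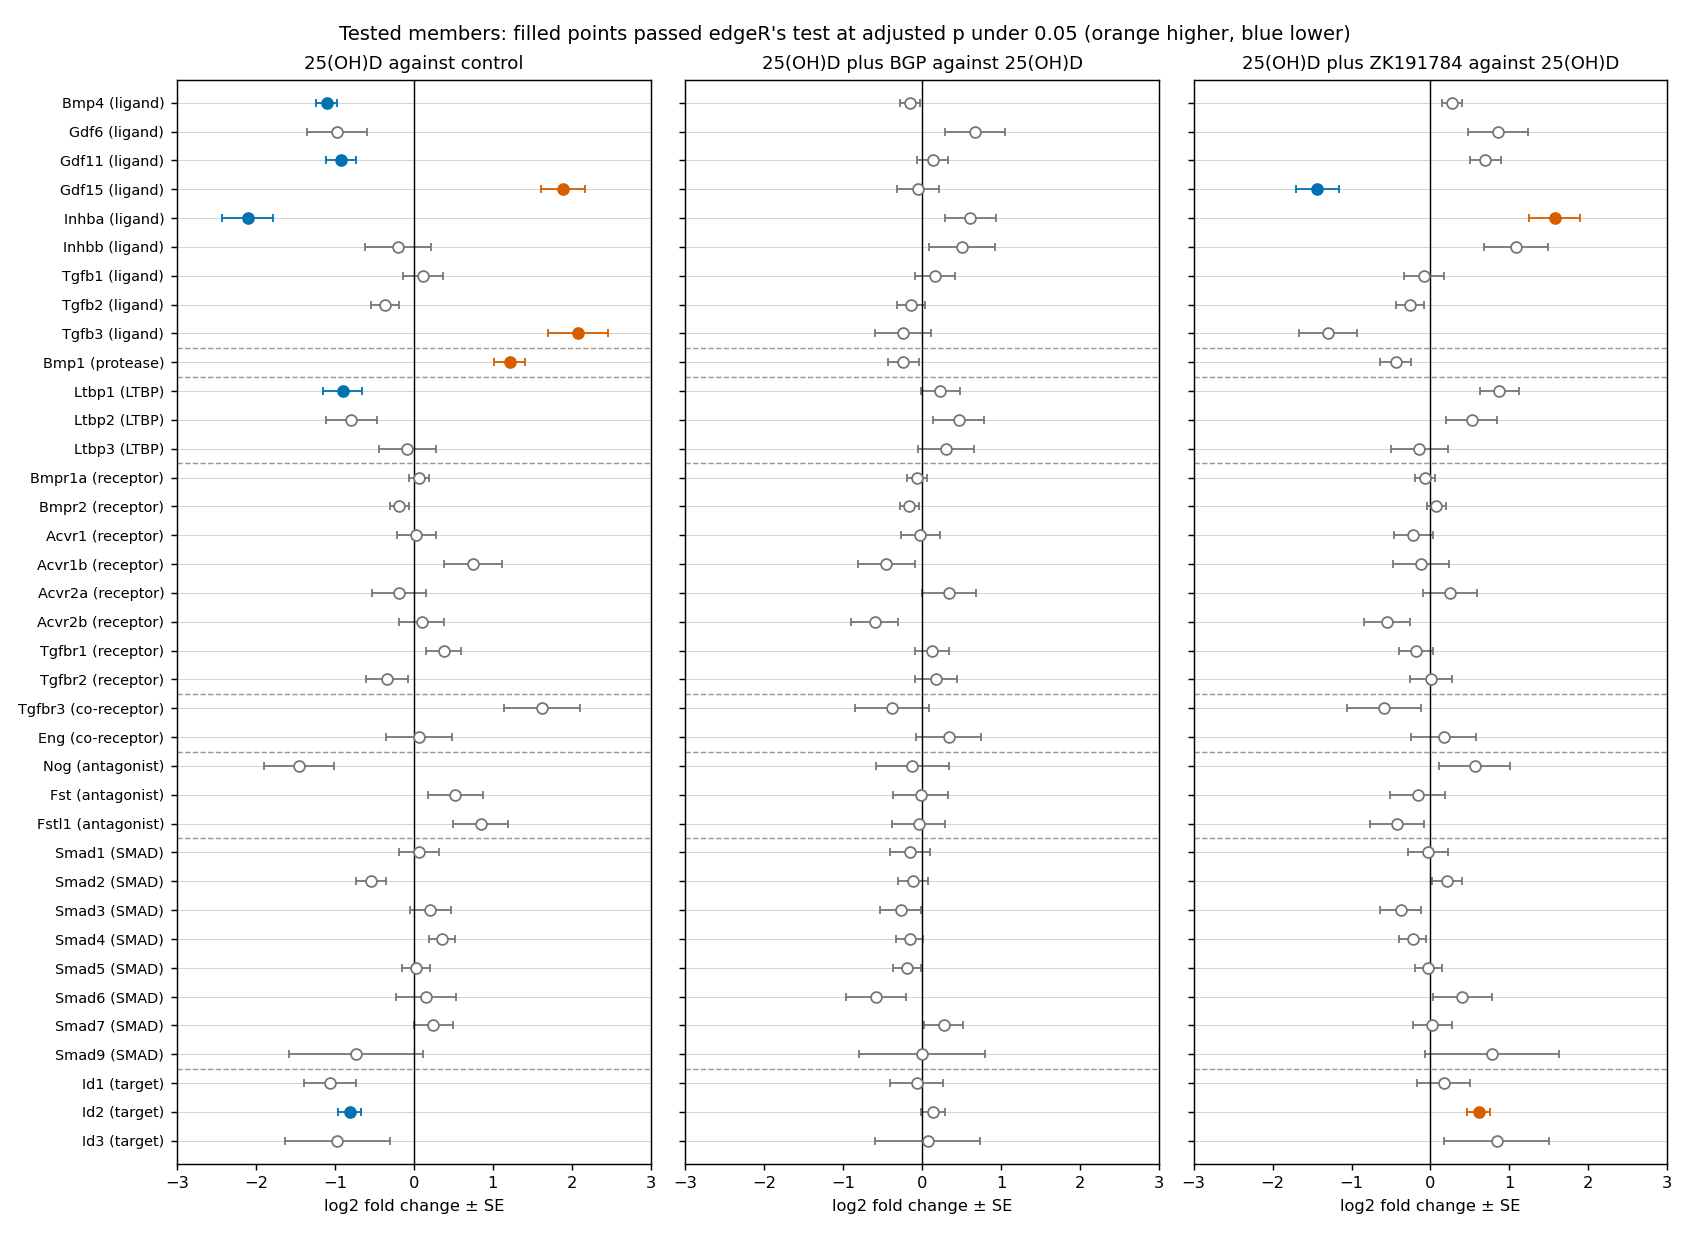
Log2 fold changes with SE of the tested members, ordered by role, in the 3 main comparisons, with filled points for those past an adjusted p of 0.05. Ligands spread from -2.10 to 2.08 with 25(OH)D, and receptors and SMADs lay between -0.73 and 0.75.

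Adding ZK191784 asked which of the responses to 25(OH)D differed in its presence. Gdf15 was lower and Inhba and Id2 were higher than with 25(OH)D alone, each in the direction of the controls. These were 3 of 37 tested members (8.11%), 2 higher and 1 lower, against 3.53% of all genes (1.42% higher and 2.11% lower). All 3 had also passed between 25(OH)D and control. The same 25(OH)D libraries serve in both comparisons, so a difference towards the controls is partly built in for such members. The median log2 difference was 0.01 over members and 0.022 over all genes. The libraries did not overlap for 11 members, against 17.6% of all genes. Without the first or the second ZK191784 library no member passed, while 11 passed when the library ratio entered as a covariate. Of all genes tested 508 were called, 302 and 269 without those libraries and 1632 with the covariate. In the same comparison 7 of the 12 osteoblast markers were higher and 1 was lower, and their part in the result was not tested.

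Gdf15 was lower with ZK191784 than with 25(OH)D alone in every library (log2 fold change -1.43 ± 0.27 SE, edgeR adjusted p = 0.00984). That call was lost without the first (adjusted p = 0.0588) or the second ZK191784 library (adjusted p = 0.0615). Against control Gdf15 did not pass (0.46 ± 0.28 SE, edgeR adjusted p = 0.954).

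Inhba was 2.98-fold higher than with 25(OH)D (log2 fold change 1.57 ± 0.32 SE, edgeR adjusted p = 0.0156), and each ZK191784 library lay above each 25(OH)D library. That call was lost without the second or the third 25(OH)D library, or without the first or the second ZK191784 library, with adjusted p from 0.0521 to 0.0842. Against control the difference was -0.53 ± 0.30 SE (edgeR adjusted p = 0.932). Inhbb was at 6.55, 6.03 and 6.96 CPM with ZK191784, above every library of 25(OH)D and of control, but did not pass (1.09 ± 0.40 SE against 25(OH)D, edgeR adjusted p = 0.249).

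Id2 was higher than with 25(OH)D by 0.61 ± 0.15 SE on the log2 scale (edgeR adjusted p = 0.0404). Leaving out any 1 of the 6 libraries ended that call, with adjusted p from 0.0818 to 0.168, as did size factors of the RLE kind in place of TMM (adjusted p = 0.0518). Against control the difference was -0.20 (edgeR adjusted p = 0.998). Id1 did not differ beyond its spread from 25(OH)D (0.17 ± 0.33 SE).

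Other members changed by 25(OH)D gave differences towards control that did not pass. Here too the 25(OH)D libraries were shared with the comparison to control, so that direction is partly built in. Tgfb3 differed by -1.30 ± 0.36 SE (edgeR adjusted p = 0.0823) and passed by DESeq2 (adjusted p = 0.0153). Gdf11 differed by 0.70 ± 0.19 SE (edgeR adjusted p = 0.0747), and passed by DESeq2 (adjusted p = 0.0271). Ltbp1 differed by 0.87 ± 0.25 SE (edgeR adjusted p = 0.0888), and passed by DESeq2 (adjusted p = 0.0307) and without a filter on low counts (0.00573). Bmp1 differed by -0.44 ± 0.20 SE (edgeR adjusted p = 0.415).

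Bmp4 moved least of the 8 when ZK191784 was added: 0.28 ± 0.13 SE on the log2 scale (edgeR adjusted p = 0.439), though all ZK191784 libraries were above all 25(OH)D libraries. It was the 1 member of 37 that passed between 25(OH)D plus ZK191784 and control, at -0.83 ± 0.13 SE (edgeR adjusted p = 0.01), against 0.723% of all genes (0.507% higher and 0.215% lower). That call was lost in the fit of these 2 groups alone (adjusted p = 0.0839) and without the first control (0.0506), the second control (0.0648), the first ZK191784 library (0.0641) or the second (0.0831). Bmp1 was above control in every ZK191784 library but did not pass (0.77 ± 0.20 SE, edgeR adjusted p = 0.145, and 0.0285 by DESeq2).

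The 12 members outside the test were rare, with at most 13 counts in any library. Over all 12 libraries, Bambi, a decoy receptor, had 51 counts, the antagonists Chrd 48 and Grem1 39, and the ligands Bmp7 31 and Bmp2 15. These 5 had an exact 2-sided permutation test over 3 against 3 libraries in each main comparison, where the smallest p possible is 0.1. The smallest p of the 15 tests was 0.2, and all were 1 after Benjamini-Hochberg adjustment over the 15. The other 7 had under 10 counts in all: Bmp6 9, Bmp3 5, Acvrl1 4, Bmpr1b 3, Gdf10 2, Fstl3 2 and Gdf5 1. These 7 were not tested, and their counts were too few to compare. The permutation test of the other 5 could give no p under 0.05, so it cannot show whether they differed.

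The other genes of the pathway were followed through 6 lists of 103 genes, of which 70 were tested. With 25(OH)D, 11 rose and 15 fell (37.1% of the 70, against 8.68% of all genes), with a median of 0.113 on the log2 scale against -0.049. With ZK191784 added, 10 were higher and 2 lower than with 25(OH)D (17.1%, against 3.53%). With BGP added 0 of 70 passed by edgeR. The lists were chosen with earlier results of these data known and include bone genes such as Runx2 and Col1a1. Their shares are therefore not independent of those results.

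Among other ligands 1 of 2 tested fell. It was Bmp8a, at 98.0 ± 4.26 CPM in controls, 36.9 ± 5.81 with 25(OH)D and 91.8 ± 2.86 with ZK191784 (SD, n = 3). It fell by 1.41 ± 0.14 SE on the log2 scale with 25(OH)D (edgeR adjusted p = 4.55e-05) and was 1.31 ± 0.14 SE higher with ZK191784 (edgeR adjusted p = 0.000231). Of 7 other receptors and co-receptors, Ror2 rose (0.97 ± 0.18 SE, edgeR adjusted p = 0.00333) and Amhr2, the type II receptor of anti-Müllerian hormone, fell. Amhr2 had 63 counts over the controls and 3 over the 25(OH)D libraries, 18.7-fold lower with a 95% exact binomial interval of 6.11 to 93 that covers counting error only.

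Of 8 other secreted antagonists 2 rose and 1 fell. Chrdl1, chordin-like 1, which binds BMPs, fell from 203 ± 5.47 CPM to 34.0 ± 5.97 (log2 fold change -2.57 ± 0.26 SE, edgeR adjusted p = 4.04e-05) and was at 80.3 ± 21.5 with ZK191784. Htra1, a secreted serine protease reported to inhibit TGF-beta signals, rose from 176 ± 35.3 to 536 ± 74.9 CPM (1.61 ± 0.18 SE, edgeR adjusted p = 8.32e-05), and was at 242 ± 10.7 with ZK191784. Nbl1, a BMP antagonist of the DAN family, rose by 0.80 ± 0.22 SE (edgeR adjusted p = 0.042), a call lost in the fit of these 2 groups alone (0.0706) and without the first or second library of either group (adjusted p from 0.144 to 0.151).

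With 25(OH)D, 4 of 17 tested SMAD modulators passed, 3 higher and 1 lower (23.5%, against 8.68% of all genes). Pmepa1, which sequesters receptor-regulated SMADs and is itself induced by TGF-beta, rose from 109 ± 24.7 to 609 ± 79.8 CPM (log2 fold change 2.49 ± 0.18 SE, edgeR adjusted p = 3.45e-06) and was at 237 ± 14.6 with ZK191784. Smurf2, a ubiquitin ligase for SMADs and receptors, fell from 321 ± 23.3 to 129 ± 6.97 CPM (-1.32 ± 0.16 SE, edgeR adjusted p = 0.000135) and was at 221 ± 7.74 with ZK191784. The SMAD corepressors Skil (1.05 ± 0.27 SE, edgeR adjusted p = 0.028) and Ski (0.54 ± 0.14 SE, edgeR adjusted p = 0.0328) rose. Both calls were lost in the fit of these 2 groups alone (adjusted p = 0.084 for Skil and 0.161 for Ski) and without any 1 of 4 of the 6 libraries. For Skil these were the first and second libraries of each group, with adjusted p from 0.0955 to 0.122. For Ski they were the second and the third control and the first and second 25(OH)D libraries, from 0.0595 to 0.125, and Ski also lost its call without a filter (0.163).

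Response genes were split, with 4 of 18 higher and 4 lower. The bone genes Col1a1 (log2 fold change -2.17 ± 0.20 SE), Dlx5 (-1.65 ± 0.23 SE) and Runx2 (-1.07 ± 0.16 SE) fell, with edgeR adjusted p-values of 2.32e-05, 0.000468 and 0.000767. Runx2 and Col1a1 are also in the osteoblast marker list above. All 3 were higher with ZK191784 than with 25(OH)D, Dlx5 by 1.62 ± 0.23 SE (edgeR adjusted p = 0.00133). Ccn2, a matricellular protein induced by TGF-beta, rose, with 2, 0 and 4 counts in controls and 670, 156 and 47 with 25(OH)D (edgeR adjusted p = 0.00631), a call lost without a filter on low counts (0.0719).

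In the list on activation and matrix storage 1 of 18 rose and 7 fell. Pcolce, which enhances procollagen cleavage by BMP1, fell from 430 ± 23.0 to 168 ± 10.4 CPM (log2 fold change -1.35 ± 0.13 SE, edgeR adjusted p = 3.22e-05) where Bmp1 itself rose. It was at 343 ± 29.2 CPM with ZK191784. Aspn, asporin, a matrix proteoglycan that binds TGF-beta, fell by 3.59 ± 0.39 SE on the log2 scale (edgeR adjusted p = 7.21e-05) and was 2.64 ± 0.38 SE higher with ZK191784 (edgeR adjusted p = 0.00165). Pcsk6, a proprotein convertase, fell by 3.57 ± 0.46 SE (edgeR adjusted p = 0.00029). It had 21, 36 and 53 counts in controls and 2, 4 and 2 with 25(OH)D, so the size of its fall rests on few counts. Itgav, an integrin subunit that activates latent TGF-beta, fell by 1.09 ± 0.17 SE (edgeR adjusted p = 0.00108).

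**Figure D4:**
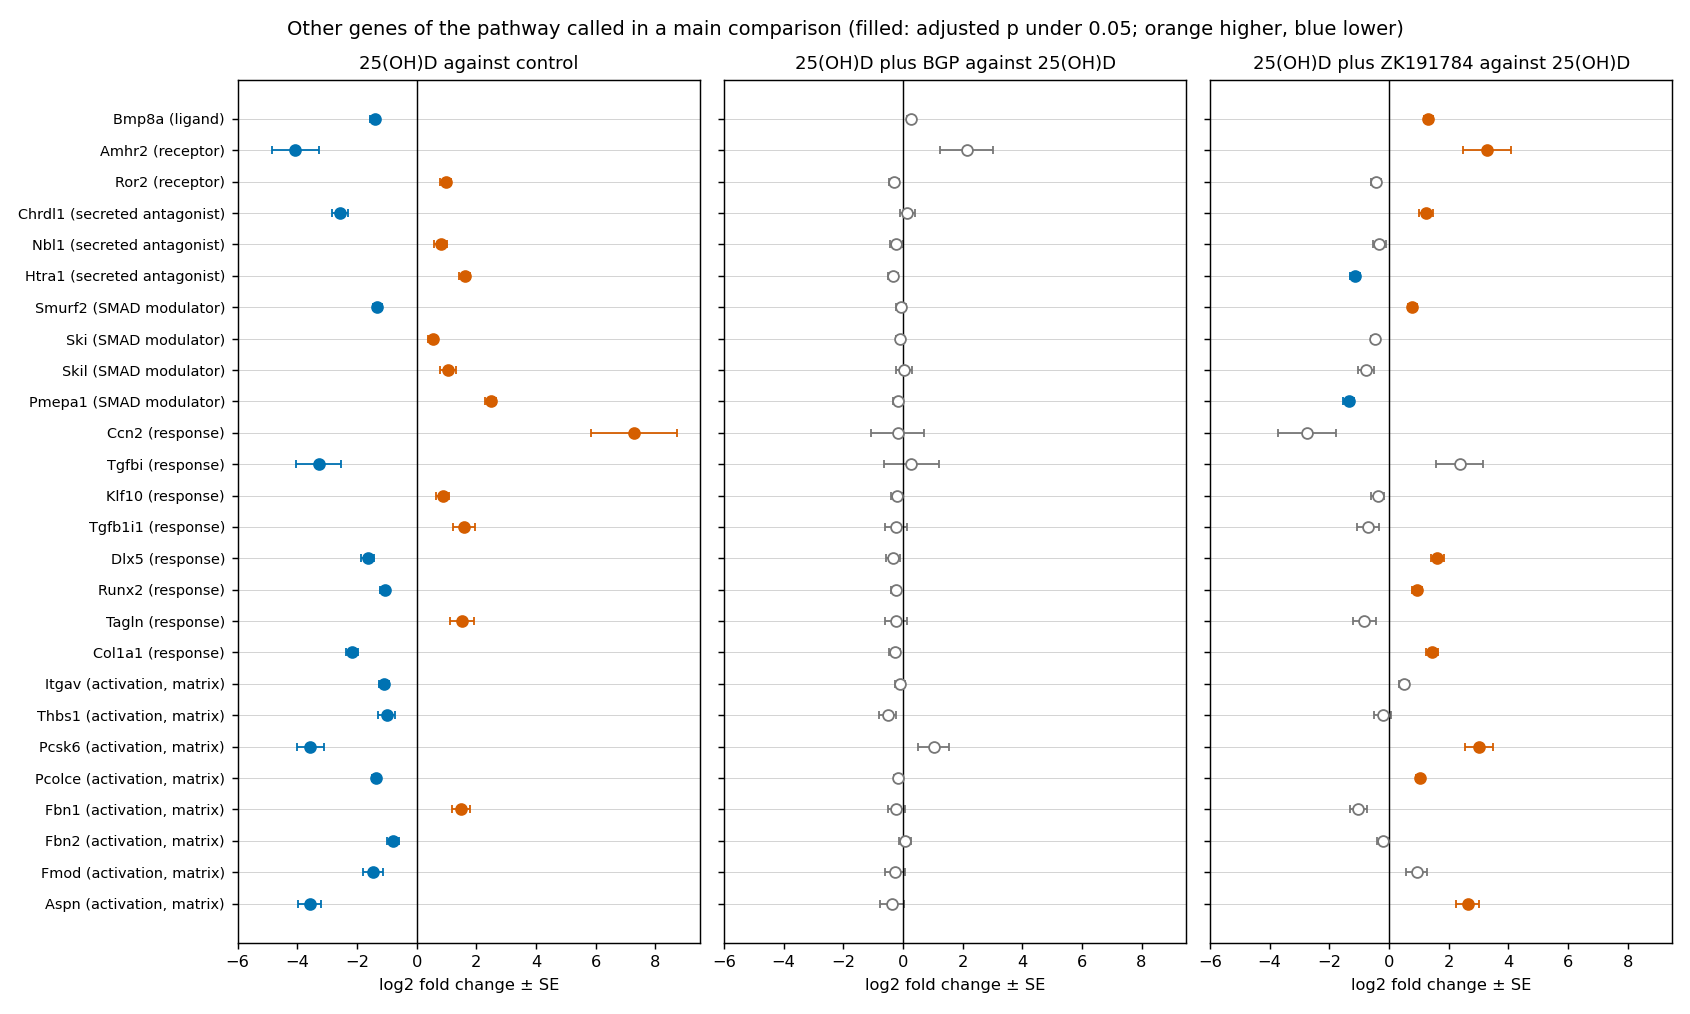
Log2 fold changes with SE of the 26 genes of the other pathway lists that passed between 25(OH)D and control, beside their values for BGP and for ZK191784 added to 25(OH)D (3 panels), with filled points past an adjusted p of 0.05. Pmepa1 was at 2.49 with 25(OH)D and -1.36 with ZK191784 added, and Chrdl1 at -2.57 and 1.24.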

How the data were processed

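RNA was extracted with TRIzol and made into QuantSeq 3' libraries, per the labels' protocols. The authors deposited a table of counts per gene symbol and library, with STAR 2.7.9a, featureCounts, Subread 2.0.3, DESeq2 1.38.2 and mm39 named in the submitters' processing notes without their roles. The strand setting and annotation were not given in the sources used here. Overlapping and antisense genes therefore cannot be told apart. Levels of 3' tags were not tested between genes, though the marker sums add them and some genes are described as low or abundant.

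Of 56691 rows, 882 with a repeated symbol were kept apart. edgeR 4.0.16 (R 4.3.3, filterByExpr with min.count 10 and min.total.count 15, TMM scaling, robust quasi-likelihood fit of all 12 libraries, 1 coefficient per group, no block) tested 14394 genes with 99.4% of the counts, and p-values were adjusted by Benjamini-Hochberg over all of them, with calls at 0.05. The common biological coefficient of variation was 0.292. CPM are TMM-scaled, as mean ± SD over 3 libraries. SEs are approximate, from dividing the log2 fold change's size by the root of F. The fit was also run on simulated data, and the outcome is not given here. DESeq2 1.42.0 was an alternative, with other scalings, filters, a replicate block, a covariate, 2-group fits and libraries left out.

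The members, lists, library ratio and rule were chosen with earlier results of these data known. All called members are given by library, other members where a role needs an example, and up to 4 called genes with the smallest p from each further list. Gdf6, Inhbb, Nog, Tgfbr3, Fst, Fstl1, Id3 and others that did not pass were added after their values were seen.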

Additional observations from a re-analysis of the deposited data

How the results depend on the processing

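No call of a member changed sign under any alternative run. Of 481 values recomputed for members with 25(OH)D against control, 457 kept their side of the threshold, 8 lost and 16 gained a call. With ZK191784 against 25(OH)D these were 452, 15 and 14 of 481, and with BGP against 25(OH)D all 480 stayed uncalled. Against control, Bmp4, Gdf15, Inhba, Tgfb3, Bmp1 and Id2 passed with 25(OH)D in all 13 alternatives, and Gdf11 in 12.

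With the library ratio as a covariate, members called rose from 8 to 16 (25(OH)D against control), from 3 to 11 (ZK191784 against 25(OH)D), from 8 to 18 (25(OH)D plus BGP against control) and from 1 to 5 (25(OH)D plus ZK191784 against control). Genes called became 2840, 1632, 2684 and 671, and 6 for BGP against 25(OH)D. In fits of only the 2 groups, 5 members were called for 25(OH)D plus BGP and 0 for 25(OH)D plus ZK191784 against control, with 763 genes called for 25(OH)D, 712 for 25(OH)D plus BGP and 42 for 25(OH)D plus ZK191784. DESeq2 called 6 members and 797 genes for ZK191784 against 25(OH)D and 3 members and 265 genes for 25(OH)D plus ZK191784 against control. Without a filter 5 and 2 members were called in those comparisons, and 220 genes in the latter. The cause was not tested.

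Leaving out 1 library gave 6 to 8 members and 813 to 1266 genes for 25(OH)D against control, 0 to 2 members and 269 to 428 genes for ZK191784 against 25(OH)D, 6 to 9 members and 794 to 1143 genes for 25(OH)D plus BGP against control, and 0 to 1 members and 34 to 119 genes for 25(OH)D plus ZK191784 against control.

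The replicate numbers share only a number: deviations of same-numbered libraries correlated between -0.72 and 0.63, with 4 of 15 over 0.1. In the main comparisons 0, 2 and 5 of 6 libraries correlated best with their own number, for 25(OH)D, BGP and ZK191784 in turn. With the replicate number as a block, 7 members were called for 25(OH)D, without Ltbp1 (0.073), 1 member and 334 genes for ZK191784 against 25(OH)D, where Inhba (adjusted p = 0.0525) and Id2 (0.0905) lost their calls, and 56 genes for 25(OH)D plus ZK191784 against control. For 25(OH)D against control the block also ended the calls of Nbl1 (0.0905), Skil (0.077) and Ski (0.0683), and for 25(OH)D plus BGP against control those of Nog (0.0792) and Gdf11 (0.061).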
